A study of Mus musculus with 24 samples.

Results

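The genes described here are 9 regulators of blood clotting and clot removal, chosen by name: F3, F13a1, Thbd, Procr, Tfpi, Plau, Plaur, Plat and Serpine2. They are 9 of the 26253 genes in the deposited count table, and all 9 passed the filter on low counts, which left 16153 genes. The choice was made with earlier results of these data known. The table holds RNA sequencing of whole mouse lung from 24 libraries. Before exposure the mice were fed a diet enriched in DHA, the fish-oil fatty acid docosahexaenoic acid, or a control diet, and they then inhaled ozone, a pollutant gas that oxidizes and damages airway epithelium, or filtered air. The groups were DHA diet with ozone, control diet with ozone, DHA diet with air, and control diet with air, with 6 libraries in each. The labels state no strain, age or sex of the mice, no ozone dose and no sampling time. Nor do they state that each library is another mouse, and the p-values therefore reflect library-to-library spread, which may be technical.

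Clotting starts outside the blood vessels when tissue factor, the product of F3, meets factor VII in plasma and sets off the cascade that makes thrombin, which turns fibrinogen into fibrin. Tissue factor pathway inhibitor (Tfpi), thrombomodulin (Thbd) and the endothelial protein C receptor (Procr) hold this cascade back on the surface of endothelium. Fibrin is cross-linked by factor XIII, whose catalytic subunit is F13a1, and is dissolved by plasmin, which the activators urokinase (Plau) and tissue plasminogen activator (Plat) make from plasminogen. The urokinase receptor (Plaur) holds urokinase at the cell surface, and protease nexin-1 (Serpine2) inhibits thrombin, urokinase and plasmin. In injured lung, fibrin is laid down in the air spaces and its removal is part of repair.

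The RefSeq promoter table of the GRCm38.p6 assembly held 8 annotated starts for 6 of the 9 genes: F3, Procr, Plaur and Serpine2 with 1 start each, and Tfpi and F13a1 with 2 each. Shown first are the 250 bases before the start of F3 and of Serpine2, the members whose RNA was higher after ozone on both diets, written 5′ to 3′ on the strand of the gene. Capitals mark letters of AP-1 sites (TGANTCA) and GC boxes (GGGCGG), and in Serpine2 also an Egr site (GCGNGGGCG) that overlaps its last GC boxes. Both strands were searched. The F3 sequence is chr3:121723287-121723536 on the plus strand and the Serpine2 sequence is chr1:79858666-79858915 on the minus strand.
F3: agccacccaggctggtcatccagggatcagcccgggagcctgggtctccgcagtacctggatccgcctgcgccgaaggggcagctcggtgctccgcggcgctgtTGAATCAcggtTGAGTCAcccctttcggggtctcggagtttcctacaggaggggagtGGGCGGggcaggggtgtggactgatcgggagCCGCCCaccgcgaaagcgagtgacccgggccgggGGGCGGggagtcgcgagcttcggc
Serpine2: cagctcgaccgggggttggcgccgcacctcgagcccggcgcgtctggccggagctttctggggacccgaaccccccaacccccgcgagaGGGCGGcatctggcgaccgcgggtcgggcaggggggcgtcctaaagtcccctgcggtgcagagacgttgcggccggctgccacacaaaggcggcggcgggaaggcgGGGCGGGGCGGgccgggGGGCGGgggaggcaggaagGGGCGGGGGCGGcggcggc

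F3 held AP-1 letters at 2 positions, starting 146 and 135 bases before its start. At least 1 such position was found in 6.75% of the 32851 promoters of the table, and at least 2 in 0.338%. Serpine2 held 6 GC boxes, some of them overlapping, a number reached by 0.886% of the promoters, while 32.7% had at least 1. The GC content of these stretches was 70.0% in F3 and 78.8% in Serpine2, against a median of 52.4% over all promoters. Plaur and Procr, printed next, each held AP-1 letters at 1 position, and Plaur also held 3 GC boxes with an overlapping Egr site, a motif present in 4.70% of promoters. The Plaur sequence is chr7:24462233-24462482 and the Procr sequence is chr2:155750967-155751216, both on the plus strand.
Plaur: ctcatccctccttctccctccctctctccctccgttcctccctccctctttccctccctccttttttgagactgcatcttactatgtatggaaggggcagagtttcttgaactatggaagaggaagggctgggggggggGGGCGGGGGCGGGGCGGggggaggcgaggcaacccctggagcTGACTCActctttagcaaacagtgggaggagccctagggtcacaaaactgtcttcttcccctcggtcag
Procr: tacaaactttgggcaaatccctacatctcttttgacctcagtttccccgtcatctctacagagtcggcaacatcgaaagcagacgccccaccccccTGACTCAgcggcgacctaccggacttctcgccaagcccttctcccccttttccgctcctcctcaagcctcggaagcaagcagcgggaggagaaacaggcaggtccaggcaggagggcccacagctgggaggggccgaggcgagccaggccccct

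Each of the 2 Tfpi starts had 1 GC box, and neither F13a1 start had a match to any of these motifs. The kappa B motif was searched only as GGGRNYYYCC, where R is A or G and Y is C or T. These letters were in 5.00% of promoters and in none of the 8 examined here. Sites that depart from this pattern were not searched for, so their absence is not shown. A match describes the letters of the window and shows no binding.

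**Figure D1:**
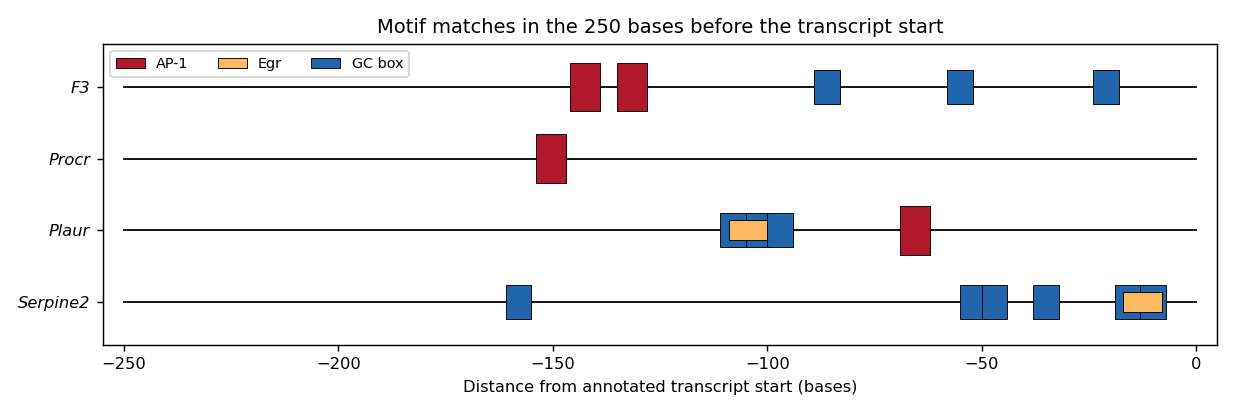
Positions of motif letters before the annotated start of F3, Procr, Plaur and Serpine2, with distance from the start in bases on the horizontal axis and boxes drawn to the width of each motif. F3 has AP-1 letters at 2 positions, Procr and Plaur at 1 each, and Serpine2 has 6 GC boxes.

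Each library had between 18053493 and 26225630 counts, of which the club cell secretoglobin Scgb1a1 made up 5.51 to 12.3%. Markers of alveolar, club, endothelial and other lung cell types were detected in all 4 groups, with none of any list at 0 across a group. DHA-diet ozone libraries 1 and 2 had the highest summed neutrophil markers, at 268.0 and 352 CPM (counts-per-million, with library sizes scaled by the TMM method). Control-diet air libraries 1 to 4 had the lowest summed alveolar type 2 markers, between 27713 and 31541 CPM, against 38423 CPM or more in every ozone library. Results that rest on these libraries are given with and without DHA-diet ozone libraries 1 and 2 or control-diet air libraries 1 to 3.

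Ozone was followed by higher F3 and Serpine2 on both diets. On the DHA diet F3 was 1.64-fold and Serpine2 1.11-fold higher after ozone, and Tfpi was lower, at 0.857 of its air level. On the control diet F3 was 1.40-fold and Serpine2 1.17-fold higher. Thus 3 of the 9 members were called on the DHA diet (2 higher, 1 lower), where 23.7% of all tested genes were called, and 2 of 9 on the control diet (2 higher, 0 lower), where 16.8% were. Being called higher on both diets held for 2 of the 9 members and for 6.65% of all tested genes. Because the members were chosen with earlier results known, these shares do not show that the set responds more than other genes. A call is a Benjamini-Hochberg adjusted p under 0.05 over all 16153 genes, from edgeR quasi-likelihood fits to the 24 libraries.

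Markers of several cell types also moved with ozone. Of the 16153 tested genes, 2055 were called higher and 1769 lower on the DHA diet, and 1442 and 1271 on the control diet. Of 7 tested neutrophil markers 6 were called higher on the DHA diet and 1 on the control diet. Their summed level ran from 74.5 to 352 CPM in DHA-diet ozone libraries, against 46.4 to 82.4 CPM in DHA-diet air libraries, and from 55.5 to 167 CPM in control-diet ozone libraries, against 52.1 to 198 CPM in control-diet air libraries. All 7 markers of dividing cells were called higher on each diet, with sums of 46.7 to 216 CPM in DHA-diet ozone, 68.0 to 107 CPM in control-diet ozone, 30.7 to 48.9 CPM in DHA-diet air and 28.8 to 41.9 CPM in control-diet air libraries. Of 5 smooth muscle markers 4 were called higher on the DHA diet and 1 on the control diet, with sums of 786 to 894 CPM in DHA-diet ozone, 720.2 to 798 CPM in control-diet ozone, 548 to 673 CPM in DHA-diet air and 569.8 to 882 CPM in control-diet air libraries. Of 8 alveolar type 2 markers 2 were called higher on the DHA diet and 5 on the control diet. The part of these markers in the ozone results for the members and for the pathway lists was not tested.

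**Figure D2:**
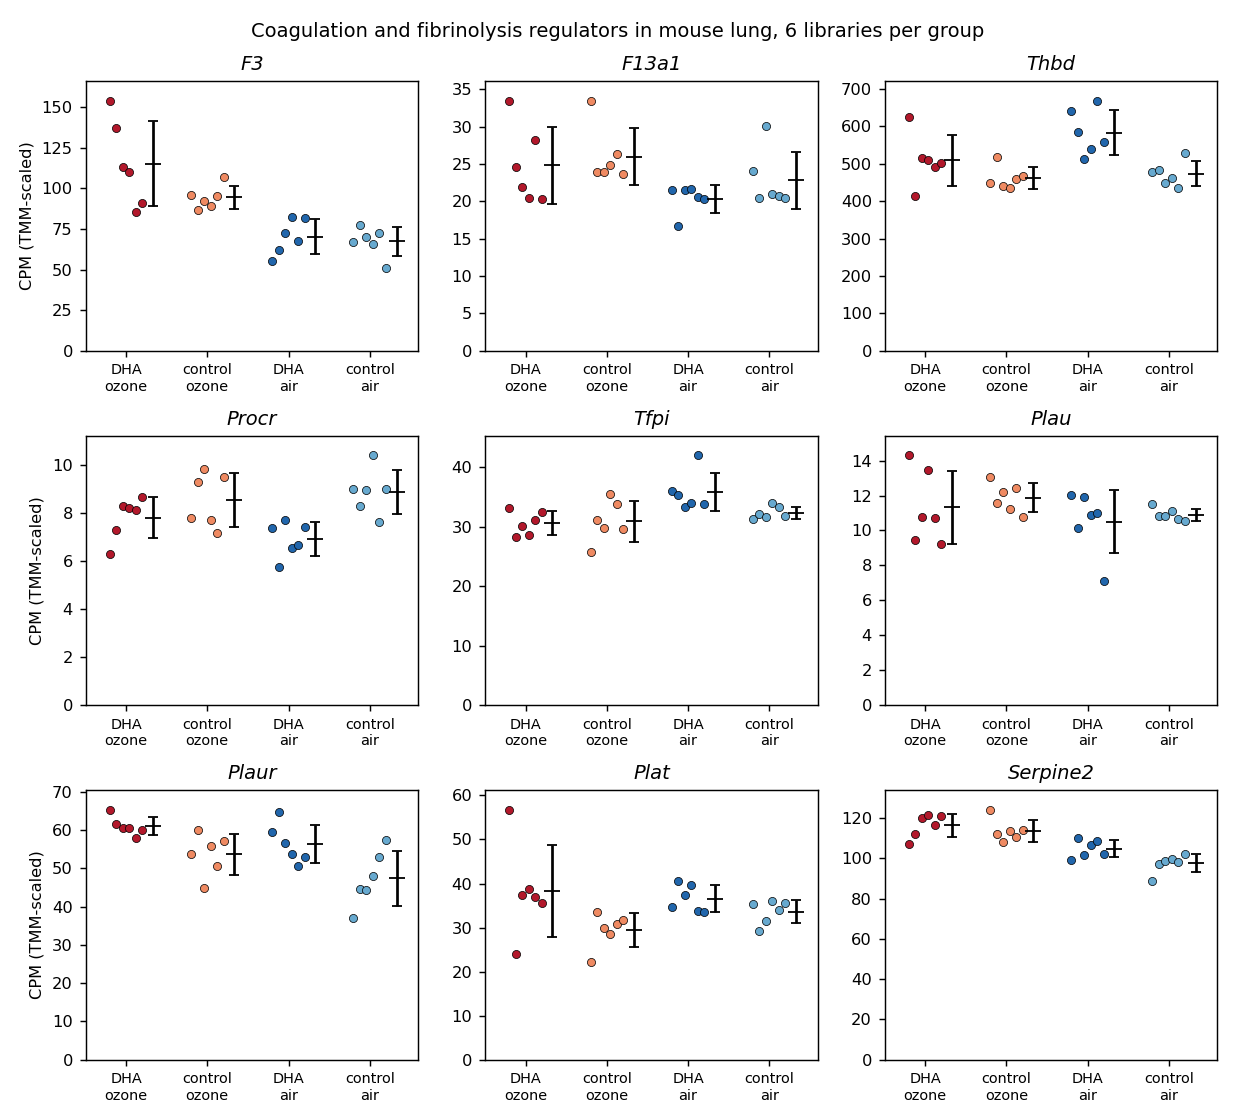
TMM-scaled CPM of each of the 9 genes in every library, with groups on the horizontal axis; each point is a library, and the bar beside the points is the mean with its SD (n = 6). F3 in ozone libraries of each diet lies above its air libraries, and Serpine2 differs by small steps with little spread.

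F3 encodes tissue factor, the cell-surface protein that starts clotting, and the deposited mm39 coordinates place it on chromosome 3 from 121517186 to 121528702, without saying whether positions count from 0 or 1. The lowest, median and highest F3 levels were 85.5, 112 and 154 CPM in DHA-diet ozone libraries, against 55.0, 69.9 and 82.1 CPM in DHA-diet air libraries. They were 86.8, 93.7 and 107 CPM in control-diet ozone libraries, against 51.0, 68.6 and 77.4 CPM in control-diet air libraries. All 6 ozone libraries were above all 6 air libraries on each diet. Ozone and air libraries did not overlap for 2 members on the DHA diet (F3 and Tfpi) and 2 on the control diet (F3 and Serpine2), and the same held in either direction for 9.03% and 7.76% of tested genes. The log2 fold change of ozone against air was 0.72 ± 0.12 (SE) on the DHA diet (edgeR quasi-likelihood, Benjamini-Hochberg adjusted p = 1.07e-04) and 0.49 ± 0.12 on the control diet (adjusted p = 0.00588). The difference between these changes was 0.23, with a 95% interval of -0.11 to 0.57 and an interaction adjusted p of 0.91.

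The spread of F3 was widest among DHA-diet ozone libraries, where the mean was 115 ± 26.3 CPM (SD, n = 6), against 94.4 ± 7.12 CPM in control-diet ozone libraries, 70.1 ± 10.8 CPM in DHA-diet air libraries and 67.4 ± 8.99 CPM in control-diet air libraries. Its highest values, 154 and 137 CPM, were in DHA-diet ozone libraries 1 and 2, those with the most neutrophil marker RNA. Without these libraries the F3 change on the DHA diet was 0.52 (adjusted p = 8.87e-04). On the control diet the call ended without control-diet air libraries 4 to 6 (0.39, adjusted p = 0.0564) and held without libraries 1 to 3 (0.57, adjusted p = 0.0168). Since whole lung was sequenced, more RNA per cell and more cells of an expressing type cannot be told apart, here and for every gene that follows.

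Serpine2 encodes protease nexin-1, a secreted and cell-bound inhibitor of thrombin and of plasminogen activators, and lies on chromosome 1 at 79772038 to 79836383. Its levels varied little within groups. The lowest, median and highest values were 107, 118 and 122 CPM in DHA-diet ozone libraries, against 99.3, 104 and 110 CPM in DHA-diet air libraries. They were 108, 113 and 124 CPM in control-diet ozone libraries, against 88.8, 98.6 and 102 CPM in control-diet air libraries. On the DHA diet 5 of 6 ozone libraries lay above the highest air library, and on the control diet all 6 did. Serpine2 changed by 0.15 ± 0.043 on the log2 scale on the DHA diet (edgeR quasi-likelihood Benjamini-Hochberg adjusted p = 0.0103) and by 0.22 ± 0.043 on the control diet (adjusted p = 8.56e-04). The interaction was -0.07 (95% interval -0.19 to 0.05, adjusted p = 0.919). The gene overlaps Rnu6 in the deposited coordinates, a feature with a mean of 2.38 counts per library.

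Tfpi encodes the inhibitor that blocks tissue factor with factor VII, and lies on chromosome 2 at 84263204 to 84307120. Its lowest, median and highest levels were 28.3, 30.7 and 33.2 CPM in DHA-diet ozone libraries, against 33.3, 34.7 and 42.0 CPM in DHA-diet air libraries. All 6 ozone libraries lay below all 6 air libraries on the DHA diet, though the nearest values, 33.2 and 33.3 CPM, almost touched. The log2 fold change was -0.22 ± 0.066 (edgeR quasi-likelihood Benjamini-Hochberg adjusted p = 0.0149). The call ended without DHA-diet air library 5, which had the 42.0 CPM (-0.17, adjusted p = 0.0661). In control-diet ozone libraries Tfpi had 25.8, 30.5 and 35.5 CPM, against 31.3, 32.0 and 34.02 CPM in control-diet air libraries, with overlap. There the change was -0.06 ± 0.07 (adjusted p = 0.559), and the interaction was -0.16 (95% interval -0.35 to 0.03, adjusted p = 0.881).

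Thbd encodes thrombomodulin, which binds thrombin on endothelium and turns it towards activation of protein C. It lies on chromosome 2 at 148246391 to 148250109. Its lowest, median and highest levels were 413, 506 and 624.7 CPM in DHA-diet ozone libraries, against 512, 571 and 668 CPM in DHA-diet air libraries. In control-diet ozone libraries they were 436, 454 and 517 CPM, against 434, 471 and 529 CPM in control-diet air libraries. The ozone and air libraries overlapped on each diet. Thbd was not called for ozone on the DHA diet (log2 fold change -0.20 ± 0.07, adjusted p = 0.0572), where 4 of 6 ozone libraries lay below the lowest air library. It was called there without DHA-diet ozone library 1, its highest ozone value (-0.26, adjusted p = 0.00664), without control-diet ozone library 2 (-0.20), without DHA-diet air library 3 (-0.24) or 4 (-0.22), by DESeq2 (adjusted p = 0.0451) and by limma-voom (adjusted p = 0.0167). The control-diet change was -0.04 ± 0.07 (adjusted p = 0.793).

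Procr encodes the receptor that presents protein C to thrombin and thrombomodulin, and lies on chromosome 2 at 155593137 to 155597399. It had few reads, between 128 and 242 counts per library. Its levels were 6.28, 8.16 and 8.64 CPM at the lowest, median and highest in DHA-diet ozone libraries, against 5.76, 7.01 and 7.70 CPM in DHA-diet air libraries. In control-diet ozone libraries they were 7.14, 8.54 and 9.81 CPM, against 7.59, 8.96 and 10.4 CPM in control-diet air libraries. The groups overlapped, and Procr was not called for ozone on the DHA diet (0.17 ± 0.10, adjusted p = 0.221) or on the control diet (-0.05 ± 0.10, adjusted p = 0.763).

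Thbd, Tfpi and Procr are expressed by endothelium. Of 10 endothelial markers 0 were called higher and 2 lower after ozone on the DHA diet, and 0 higher and 1 lower on the control diet. Their summed level ran from 2936 to 3763 CPM in DHA-diet ozone libraries, against 3454 to 3800 CPM in DHA-diet air libraries. It ran from 3262 to 3526 CPM in control-diet ozone libraries, against 3383 to 3907 CPM in control-diet air libraries. Of 5 lung capillary markers (Car4 type) 0 were called higher and 1 lower on the DHA diet, with 0 calls on the control diet. Their sum was highest in DHA-diet air library 5, at 726 CPM, with 614 CPM next in that group. That library was highest of its group in Tfpi and Thbd but not in Procr, at 6.65 CPM. The part of these marker levels in the results for Thbd, Tfpi and Procr was not tested.

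**Figure D3:**
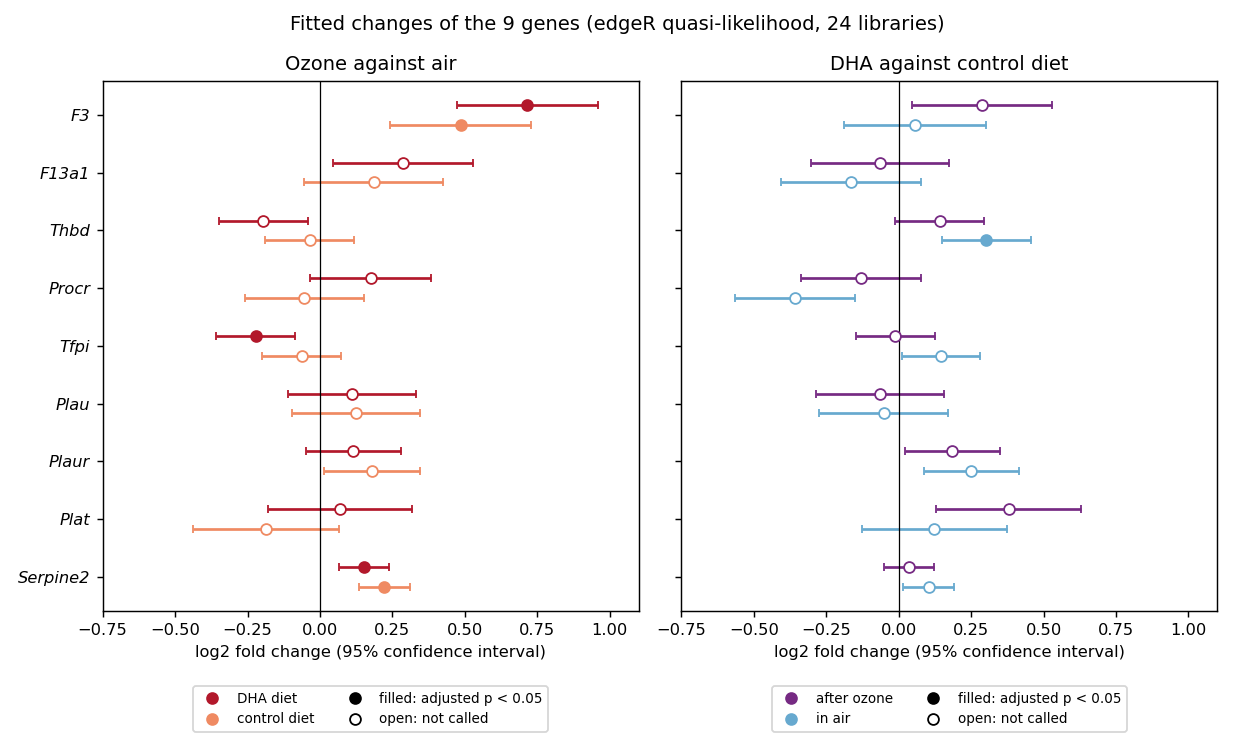
Fitted log2 fold changes with 95% confidence intervals for the 9 genes, ozone against air in the left panel and DHA against control diet in the right panel; filled points were called by edgeR at an adjusted p under 0.05. F3 and Serpine2 are called on both diets and Tfpi on the DHA diet in the left panel, and Thbd in air is the 1 filled point of the right panel.

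The activators of plasminogen and the urokinase receptor were not called for ozone. Plau, which encodes urokinase and lies on chromosome 14 at 20886730 to 20893457, had 9.25, 10.8 and 14.3 CPM in DHA-diet ozone libraries, against 7.14, 10.9 and 12.01 CPM in DHA-diet air libraries. It had 10.8, 11.9 and 13.04 CPM in control-diet ozone libraries, against 10.5, 10.8 and 11.5 CPM in control-diet air libraries. Those groups overlapped, with log2 fold changes of 0.11 (95% interval -0.11 to 0.33) on the DHA diet and 0.12 (-0.10 to 0.35) on the control diet.

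Plat, which encodes tissue plasminogen activator, a product of endothelium among other cells, lies on chromosome 8 at 23247738 to 23272865. It had 24.1, 37.2 and 56.7 CPM in DHA-diet ozone libraries, against 33.6, 36.0 and 40.5 CPM in DHA-diet air libraries. The lowest and highest of all 6 were DHA-diet ozone libraries 2 and 1. In control-diet ozone libraries it had 22.3, 30.4 and 33.6 CPM, against 29.3, 34.7 and 35.9 CPM in control-diet air libraries. The ozone changes were 0.07 (95% interval -0.18 to 0.32) on the DHA diet and -0.19 (-0.44 to 0.06) on the control diet. Without DHA-diet ozone library 1 the DHA-diet change was -0.08 (edgeR adjusted p = 0.614).

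Plaur encodes the urokinase receptor of leukocytes and stressed epithelium, and lies on chromosome 7 at 24161908 to 24175394. It had 58.0, 60.6 and 65.2 CPM in DHA-diet ozone libraries, against 50.6, 55.3 and 64.6 CPM in DHA-diet air libraries. In control-diet ozone libraries it had 44.8, 54.7 and 60.1 CPM, against 36.9, 46.3 and 57.4 CPM in control-diet air libraries. Control-diet air libraries 1 to 3 lay at 36.9, 44.7 and 44.3 CPM and libraries 4 to 6 at 48.0, 52.9 and 57.4 CPM. The Plaur change on the control diet was 0.18 ± 0.08 (adjusted p = 0.126) and depended on them: it was 0.02 (adjusted p = 0.92) without libraries 1 to 3, 0.35 (adjusted p = 0.00604) without libraries 4 to 6, and called without library 6 alone (0.24, adjusted p = 0.0366). On the DHA diet it was 0.11 ± 0.08 (adjusted p = 0.314).

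F13a1 encodes the catalytic subunit of factor XIII, the transglutaminase that cross-links fibrin, which macrophages and megakaryocytes make, and lies on chromosome 13 at 37051152 to 37234221. It had 20.3, 23.2 and 33.4 CPM in DHA-diet ozone libraries, against 16.7, 21.01 and 21.7 CPM in DHA-diet air libraries. In control-diet ozone libraries it had 23.6, 24.4 and 33.4 CPM, against 20.5, 20.9 and 30.1 CPM in control-diet air libraries. The 2 highest values were 33.4 and 28.2 CPM in DHA-diet ozone, 33.4 and 26.3 CPM in control-diet ozone, and 30.1 and 24.1 CPM in control-diet air. The groups overlapped. The changes were 0.29 ± 0.12 on the DHA diet (adjusted p = 0.0756) and 0.19 ± 0.12 on the control diet (adjusted p = 0.295). The DHA-diet change was called without DHA-diet ozone library 4 or 6 (0.34 and 0.33) or control-diet ozone library 1 (0.29), with adjusted p between 0.0417 and 0.0491. Of 10 alveolar macrophage markers 3 were called higher on the DHA diet and 2 on the control diet, with summed levels of 158 to 200.03 CPM in DHA-diet ozone, 162 to 183 CPM in control-diet ozone, 137 to 206 CPM in DHA-diet air and 152 to 171 CPM in control-diet air libraries. Of 8 monocyte markers 2 were called higher on the DHA diet and 1 on the control diet. Of 8 interstitial macrophage markers 2 were on each. Monocyte sums ran from 158 to 193 CPM in DHA-diet ozone and 174 to 227 CPM in control-diet ozone libraries. In air libraries they ran from 151 to 217 CPM on the DHA diet and 171 to 201 CPM on the control diet. Library 1 of each ozone group was highest in these and in F13a1. Control-diet air library 3, highest in F13a1, had 180 CPM. The part of these markers in F13a1 levels was not tested.

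For diet, 1 member was called: Thbd, in mice that breathed air. DHA-diet air libraries had 512, 571 and 668 CPM of Thbd, against 434, 471 and 529 CPM in control-diet air libraries, and 5 of 6 lay above the highest control library. The change was 1.23-fold (log2 0.30 ± 0.075, edgeR quasi-likelihood Benjamini-Hochberg adjusted p = 0.0436), which makes 1 of 9 members called, beside 1.15% of all tested genes. These DHA-diet air libraries are also those that the ozone change on the DHA diet was measured against. The call lay near the threshold: the adjusted p was 0.0642 with the replicate number as a block, 0.201 without control-diet air libraries 1 to 3 and 0.042 without libraries 4 to 6. It ended in 15 of the 24 fits that left out 1 library, with values from 0.25 (without DHA-diet air library 5, adjusted p = 0.134) to 0.34. After ozone the diet change in Thbd was 0.14 (95% interval -0.01 to 0.30, adjusted p = 0.398), and the interaction, -0.16 (-0.38 to 0.06, adjusted p = 0.894), was not called, so that the diet change was not shown to differ between exposures.

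Procr and Plaur, not called by edgeR, had the smallest p-values for diet in air after Thbd. Procr was at 0.78 of its control-diet level in DHA-diet air libraries, with 5 of 6 below the lowest control library (log2 -0.36 ± 0.10, adjusted p = 0.0684), and was called by DESeq2 (adjusted p = 0.0263), by limma-voom (adjusted p = 0.0349) and without DHA-diet ozone library 1 (adjusted p = 0.034). Plaur differed by 0.25 ± 0.08 (adjusted p = 0.103), by 0.09 (adjusted p = 0.668) without control-diet air libraries 1 to 3, by 0.42 (adjusted p = 0.0031) without libraries 4 to 6, and by 0.31 (adjusted p = 0.0253) without library 6. The 10 endothelial markers had 0 calls for diet in air. Alveolar type 2 markers were called higher in DHA-diet air libraries in 5 of 8. Their summed levels were 39124 to 43245 CPM, against 27713 to 41146 CPM in control-diet air libraries. Of 5 smooth muscle markers 0 were called higher and 2 lower. Their sums were 548 to 673 CPM in DHA-diet air libraries, against 569.8 to 882 CPM in control-diet air libraries. The part of the markers in the differences of Procr and Plaur was not tested.

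After ozone 0 of the 9 members and 0 of the 16153 tested genes were called for diet by edgeR, with 3 members and 2260 genes at an unadjusted p under 0.05. DESeq2 called 41 genes higher and 39 lower, and limma-voom 8 and 11, none of them members. The unadjusted members were Plat, F3 and Plaur. Plat had 24.1, 37.2 and 56.7 CPM in DHA-diet ozone libraries, against 22.3, 30.4 and 33.6 CPM in control-diet ozone libraries, and 5 of 6 were above the highest control-diet library (log2 fold change 0.38, 95% interval 0.13 to 0.63, edgeR adjusted p = 0.191). It was called without DHA-diet ozone library 2, the 24.1 CPM (0.48, adjusted p = 0.0393). For F3 the diet difference was 0.29 (0.05 to 0.53, adjusted p = 0.28) and was 0.09 without DHA-diet ozone libraries 1 and 2. For Plaur it was 0.19 (0.02 to 0.35, adjusted p = 0.298).

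The change after ozone was not shown to depend on diet for any member. For the interaction edgeR called 0 of the 9 members and 0 genes, with 988 genes and 0 members at an unadjusted p under 0.05, while DESeq2 called 2 genes higher and 3 lower and limma-voom 0 and 2. The widest interval among the members was that of Plat (0.26, -0.10 to 0.61) and the narrowest that of Serpine2.

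In order of group means, F3 and Serpine2 ran from DHA-diet ozone through control-diet ozone and DHA-diet air to control-diet air. The 2 ozone groups overlapped in each gene and so did the 2 air groups. Plaur ran from DHA-diet ozone through DHA-diet air and control-diet ozone to control-diet air, at 61.0 ± 2.39, 56.3 ± 5.05, 53.7 ± 5.40 and 47.4 ± 7.15 CPM (SD, n = 6), each overlapping its neighbour. Thbd was highest in DHA-diet air, at 583 ± 60.2 CPM, ahead of DHA-diet ozone at 509 ± 67.9, control-diet air at 473 ± 33.1 and control-diet ozone at 462 ± 29.8 CPM. Tfpi was highest in DHA-diet air, Procr in control-diet air and Plau in control-diet ozone, each overlapping at least 1 other group.

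Across the 24 libraries the members did not move as a block. Likeness was measured as the root mean square difference of log2 CPM standardized within each gene, which is 0 for identical patterns, over 14059 genes averaging 1 CPM or more. Over the 36 pairs of members it ran from 0.862 for Plat and Thbd to 1.74 for Thbd and Procr, with a median of 1.41. The genes most like F3 were Krt8, a keratin of simple epithelium, at 0.365, and Ipo5, a nuclear import receptor, at 0.374, against a median of 1.41 over all candidates. Krt8 averaged 356 and 324 CPM in ozone libraries of the DHA and the control diet, against 251 and 253 CPM in their air libraries. Serpine2 was most like Actb, the cytoskeletal beta-actin, at 0.431, and Spcs2, a signal peptidase subunit, at 0.488. Thbd was most like Prx, the periaxin gene, at 0.407, and Klhl5 at 0.426. The nearest genes were Kitl (0.587) and Sec61a2 (0.592) for Tfpi, Rassf1 (0.488) and Arhgef7 (0.553) for Plat, Sfpq (0.539) and Ube2d3 (0.563) for Plaur, and Thada (0.605) and Wdr41 (0.695) for F13a1. They were Cldn22 (0.733) and Aspg (0.760) for Procr, and Tmem167 (0.811) and Snap29 (0.827) for Plau. These values describe likeness over libraries that share the 4 groups and carry no test.

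Other genes of the pathway were counted in 6 lists of 71 genes, of which 59 were tested. On the DHA diet 20 were called higher and 1 lower after ozone, or 35.6% against 23.7% of all tested genes, with a median log2 fold change of 0.16 against -0.01 over all genes. On the control diet 12 were called higher and 2 lower, or 23.7% against 16.8%, with a median of 0.07 against -0.01. The lists too were chosen with earlier results known, so these contrasts do not show that the pathway responds more than other genes. For diet, after ozone or in air, and for the interaction edgeR called 0 of the 59, with 19, 10 and 11 at an unadjusted p under 0.05. Of all 16153 tested genes, 2260, 2798 and 988 were at such a p, and 0%, 1.15% and 0% were called. Of the 59, DESeq2 called 2 higher after ozone and 2 in air, and limma-voom 2 in air. For diet in air edgeR called 3 higher without DHA-diet ozone library 1, 3 without libraries 1 and 2, 4 without control-diet air libraries 4 to 6, 2 without control-diet air library 5 or 6, 1 without control-diet ozone library 3, and 1 with the 2 air groups alone. After ozone it called 2 higher without DHA-diet ozone library 2 and 1 without control-diet air libraries 4 to 6. Without DHA-diet ozone libraries 1 and 2 the first count was 13 higher, and without control-diet air libraries 1 to 3 the second was 5 higher and 1 lower. Single libraries moved the 2 lower calls of the control diet to between 0 and 6.

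**Figure D4:**
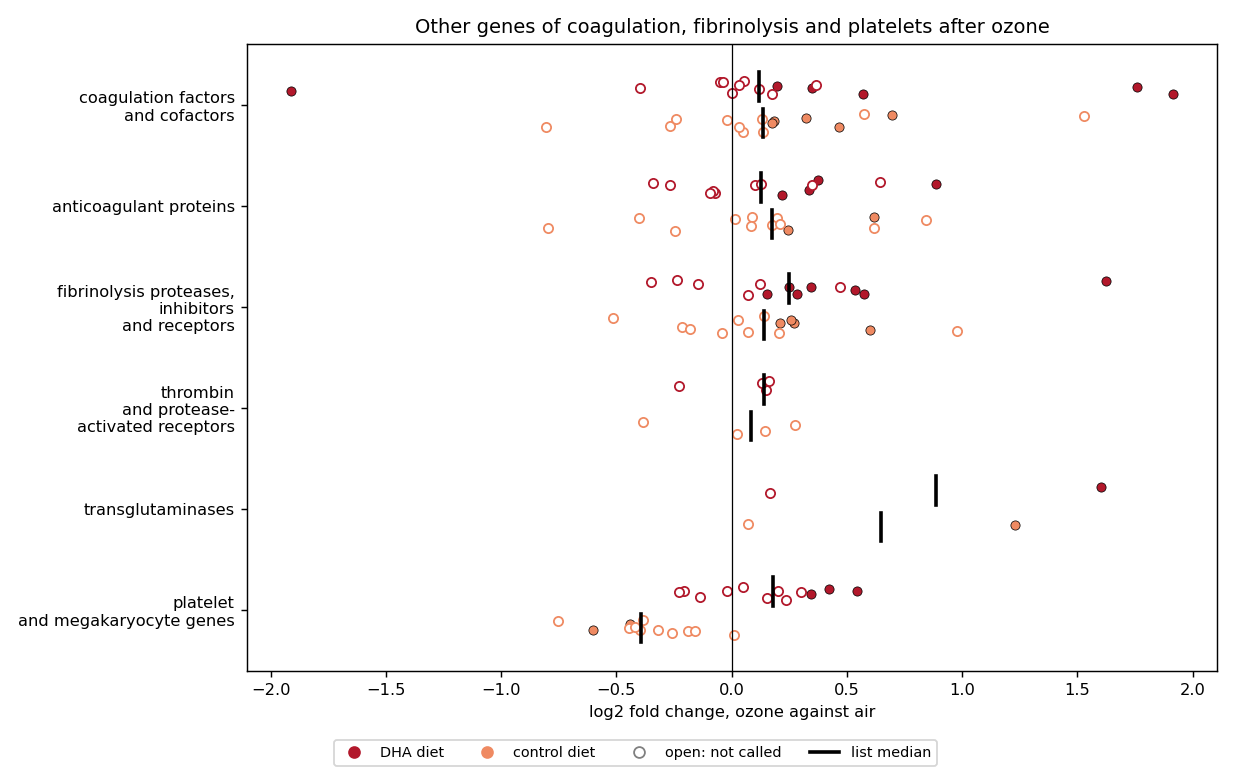
Log2 fold changes of ozone against air for the 59 tested genes of 6 lists, DHA diet above control diet in each list; filled points were called by edgeR, open points were not, and black ticks are list medians. Medians lie above 0 in every list on the DHA diet, while the platelet list lies at -0.39 on the control diet.

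Among fibrinolysis proteases, inhibitors and receptors, 7 of 13 were called higher on the DHA diet and 4 of 13 on the control diet, with 0 lower on either. Beside this list and those below, 2055 of the 16153 tested genes were called higher and 1769 lower on the DHA diet. On the control diet 1442 were called higher and 1271 lower. In the fibrinolysis list a lower call appeared on the DHA diet without DHA-diet air library 4 or control-diet air library 3. It appeared on the control diet without control-diet air library 2, and on both diets without control-diet air libraries 1 to 3. Eno1, a glycolytic enzyme that also binds plasminogen at the cell surface, was 1.45-fold higher on the DHA diet (edgeR quasi-likelihood Benjamini-Hochberg adjusted p = 1.89e-07) and 1.21-fold higher on the control diet (adjusted p = 6.65e-04). Anxa2 and S100a10, which together form a surface receptor for plasminogen and its activator, were 1.19-fold and 1.27-fold higher on the DHA diet, and Anxa2 was 1.16-fold higher on the control diet. Itgb2, a leukocyte integrin chain, was called on the control diet (1.20-fold, adjusted p = 0.044) and was also called higher on the DHA diet. Without control-diet air libraries 1 to 3 the calls of Anxa2 and Itgb2 on the control diet ended (adjusted p = 0.135 and 0.309), and that of Itgb2 ended in 12 of 24 fits without 1 library. The control-diet Itgb2 call also ended with library totals, without a filter and with the replicate number as a block. Without DHA-diet ozone libraries 1 and 2 the list had 4 higher on the DHA diet.

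Of 15 coagulation factors and cofactors, 5 were called higher and 1 lower on the DHA diet, and 5 higher and 0 lower on the control diet. The higher calls numbered 3 on the DHA diet with a filter of 1 CPM in 6 libraries, and on the control diet 3 with library totals and 2 without control-diet air libraries 1 to 3. P4hb, protein disulfide isomerase, which has been tied to tissue factor activation, was higher by 0.35 ± 0.05 on the log2 scale on the DHA diet (adjusted p = 2.79e-05) and by 0.32 ± 0.05 on the control diet (adjusted p = 1.28e-04), with no overlap on either. The clotting factor genes F7 and F10 were 1.38-fold and 1.62-fold higher on the control diet (adjusted p = 0.00446 and 0.00993), and both control-diet calls ended without control-diet air libraries 1 to 3 (adjusted p = 0.138 and 0.155). F10 was also called on the DHA diet, at 7.06 ± 1.83 CPM in DHA-diet ozone libraries, against 4.75 ± 0.785 CPM in DHA-diet air libraries (1.48-fold, adjusted p = 0.0225). Mcfd2, a cargo receptor subunit for factors V and VIII, was 1.13-fold higher on the control diet (adjusted p = 0.0211) and also called on the DHA diet. Its control-diet call ended without control-diet ozone library 6 and without control-diet air library 2 or 3. That call also ended with library totals and without control-diet air libraries 1 to 3 together, with edgeR adjusted p up to 0.434. Kng2, Fgg and F11 had traces of RNA: in DHA-diet ozone libraries they averaged 0.699, 1.17 and 0.159 CPM, against 0.18, 0.346 and 0.61 CPM in DHA-diet air libraries. Kng2, a kininogen, and Fgg, the fibrinogen gamma chain, were called higher, and F11, factor XI, lower. The F11 call held in the 33 alternatives that gave it a value. The list had 0 lower calls on the DHA diet with a filter of 1 CPM in 6 libraries and with the DHA-diet groups alone.

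Of 13 anticoagulant proteins, 4 were called higher on the DHA diet and 2 on the control diet, with 0 lower. Leaving out 1 library gave 3 to 4 higher on the DHA diet and 1 to 4 on the control diet, with 0 to 1 lower on each. On the control diet 4 were higher and 1 lower with limma-voom, with that diet's groups alone, without DHA-diet ozone library 1 and without libraries 1 and 2 together. Tfpi2, a serine protease inhibitor related to Tfpi, was at 2.04 ± 0.345 CPM in DHA-diet ozone libraries, against 1.11 ± 0.204 CPM in DHA-diet air libraries, with no overlap (1.85-fold, adjusted p = 0.0083). The phospholipid-binding annexins Anxa3 and Anxa5 were 1.26-fold and 1.16-fold higher (adjusted p = 0.0047 and 0.015). Hs3st1, the enzyme that makes antithrombin-binding heparan sulfate, was 1.30-fold higher (adjusted p = 0.032), a call that ended without any 1 of DHA-diet ozone libraries 1 and 5 and DHA-diet air libraries 1 and 3. The Hs3st1 call also ended with limma-voom and without DHA-diet ozone libraries 1 and 2 together. On the control diet Serpind1, heparin cofactor II, was 1.53-fold higher (adjusted p = 0.0206) and Ptgis, the prostacyclin synthase, 1.18-fold (adjusted p = 0.0312). Neither call held without control-diet air libraries 1 to 3 (adjusted p = 0.133 and 0.586). That of Serpind1 also ended without control-diet ozone library 3, and that of Ptgis without any 1 of control-diet air libraries 1 to 3 or of control-diet ozone libraries 2 to 4. The Serpind1 call ended too without control-diet air libraries 4 to 6, and the Ptgis call with library totals.

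Of 2 tested transglutaminases, Tgm1, which cross-links the envelope of squamous epithelium, was called on both diets. It was at 10.8 ± 4.99 CPM in DHA-diet ozone libraries, against 3.56 ± 0.452 CPM in DHA-diet air libraries (3.04-fold, adjusted p = 1.00e-05), and at 8.74 ± 1.14 CPM in control-diet ozone libraries, against 3.73 ± 0.775 CPM in control-diet air libraries (2.34-fold, adjusted p = 2.93e-04). Of the 4 thrombin and protease-activated receptors 0 were called for ozone by edgeR, with 0 on the DHA diet and 1 on the control diet at an unadjusted p under 0.05, and DESeq2 called 1 higher on the control diet. F2r, the main thrombin receptor, had changes of 0.15 ± 0.08 on the DHA diet and 0.14 ± 0.08 on the control diet.

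Of 12 platelet and megakaryocyte genes, 3 were called higher on the DHA diet (Pf4, Gp1bb and Clec1b, at 1.27, 1.46 and 1.34-fold) and 2 lower on the control diet (Gp1bb and Gp1ba, at 0.658 and 0.736 of the air level). The list medians were 0.18 and -0.39. The interaction had 0 calls in the list, so a difference between diets was not shown. At an unadjusted p under 0.05 by edgeR, 6 of the 12 genes stood out for the interaction, beside 988 of 16153 tested genes. For diet after ozone 7 of the 12 did, beside 2260 tested genes, and DESeq2 called 2 of the list higher there. The ozone calls were not stable: the DHA-diet count was 0 without DHA-diet ozone library 4 and without libraries 1 and 2 together, and it was 1 with limma-voom, with the replicate number as a block and when libraries 1 or 6 of DHA-diet ozone or of DHA-diet air were left out. The control-diet count was 0 when ozone library 1 or 6 or air library 1 or 3 was left out, 1 without ozone library 4 or air library 5, 4 without air library 2, and 0 with the replicate number as a block. Summed levels of 6 platelet markers ran from 64.8 to 115 CPM in DHA-diet ozone libraries, 61.2 to 88.4 CPM in control-diet ozone, 57.3 to 85.5 CPM in DHA-diet air and 69.6 to 98.8 CPM in control-diet air libraries.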

How the data were processed

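RNA sequencing of whole mouse lung gave 24 libraries in 4 groups of 6, assigned from the sample titles. The values the authors deposited are unnormalized counts per gene, made in Partek with STAR alignment to mm39 and HTSeq counting, per the submitters' processing notes. The notes used here name neither tool versions nor annotation nor strand setting. The count of Scgb1a1 is rounded to 3 significant digits in the deposited table. No library repeated another.

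Genes were filtered with filterByExpr (minimum count 10, minimum total 15), scaled by TMM and fitted with edgeR 4.0.16 quasi-likelihood models in R 4.3.3, with 1 mean per group (20 residual degrees of freedom). Ozone was compared with air per diet, DHA with control diet per exposure, and the interaction was tested, 5 comparisons in all, each with Benjamini-Hochberg adjustment over 16153 genes and calls at 0.05. Standard errors derive from the F statistic. Standardized log2 CPM used a prior count of 2. Every member had at least 128 counts in every library. The fitting code was tested on simulated data.

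The members and gene lists were chosen with earlier results of these data known. Named genes are the members, up to 4 called genes per list with the smallest p, and the 2 genes most like each member. A gene that the rule also names is counted in its list and is not reported here. Of 36 same-number pairs of libraries, 0 correlated above 0.1 (mean -0.0169) once group means were removed. The labels do not say whether a number marks a shared litter, batch or day, and this correlation cannot decide it. Alternatives were DESeq2 1.42.0, limma-voom (limma 3.58.1) with quality weights, RLE or library-total scaling, no filter or one at 1 CPM in 6 libraries, the replicate number as a block, fits of 1 comparison's groups alone, and fits leaving out each library, control-diet air libraries 1 to 3 or 4 to 6, or DHA-diet ozone libraries 1 and 2. Motif positions, levels and figures used Python 3.11.15 with pandas 2.3.3 and matplotlib 3.10.9. Promoters are RefSeq GRCm38.p6 and were not joined to the mm39 coordinates.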

Additional observations from a re-analysis of the deposited data

Results flagged for a closer look

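Among the 36 combinations of member and group, 4 had a library far from the other 5, and chance gives about 1 such group in 20. Serpine2 in control-diet air library 1 was the lowest of its group at 88.8 CPM, with the next at 97.2 CPM. F13a1 was highest in control-diet ozone library 1 at 33.4 CPM, with the next at 26.3 CPM, and lowest in DHA-diet air library 2 at 16.7 CPM, with the next at 20.4 CPM. Tfpi in DHA-diet air library 5 was the highest of its group at 42.0 CPM, with the next at 36.1 CPM. Without that library the fall of Tfpi after ozone on the DHA diet was no longer called.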

How the results depend on the processing

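Of 1564 log2 fold changes of the 9 members under the alternatives, 1523 stayed called or stayed not called, 21 lost a call, 20 gained one and 0 reversed a call. The 1523 include changes not called in either fit whose sign differed. Plat for ozone on the DHA diet, for example, went from 0.07 to -0.08 without DHA-diet ozone library 1. F3 on the DHA diet and Serpine2 on both diets were called in every alternative. Counts of members are given for higher and then lower. Ozone on the DHA diet had 2 and 1, with 2 lower under DESeq2, limma-voom and without DHA-diet ozone libraries 1 and 2. Diet in air had 1 and 0. It had 0 higher with library totals, without a filter, with the replicate block and without control-diet air libraries 1 to 3, 2 higher with limma-voom and without control-diet air libraries 4 to 6, and 1 lower with DESeq2, limma-voom and without DHA-diet ozone libraries 1 and 2. Leaving out 1 library gave members 2 to 3 higher and 0 to 2 lower for ozone on the DHA diet, 2 to 3 and 0 on the control diet, 0 to 1 and 0 for diet after ozone, 0 to 2 and 0 to 1 for diet in air, and 0 and 0 for the interaction. Over all genes, ozone on the control diet had 1442 higher and 1271 lower, against 940 and 1737 with library totals, and against 852 higher without control-diet air libraries 1 to 3. Diet in air had 117 higher and 69 lower, against 72 and 113 with library totals, 64 and 21 with the replicate block, 314 and 269 with DESeq2, 408 and 441 with limma-voom, 187 and 172 with the 2 groups alone, 0 and 0 without control-diet air libraries 1 to 3, 655 and 896 without libraries 4 to 6, and 344 and 403 without DHA-diet ozone libraries 1 and 2. Diet after ozone had 0, against 41 and 39 with DESeq2, 8 and 11 with limma-voom, 1 and 1 with the 2 groups alone, and 12 and 15 without control-diet air libraries 4 to 6. The interaction had 0, against 2 and 3 with DESeq2, 0 and 2 with limma-voom, and 3 and 1 without control-diet air libraries 4 to 6. Leaving out 1 library gave 1687 to 2241 and 1388 to 1827 for ozone on the DHA diet, 1084 to 1497 and 941 to 1552 on the control diet, 0 to 71 and 0 to 73 for diet after ozone, 37 to 308 and 12 to 439 for diet in air, and 0 to 2 and 0 to 1 for the interaction. The causes were not tested. The labels do not say what replicate numbers mark. With them as a block in edgeR the Thbd call in air ended (0.30, adjusted p = 0.0642), and the other member calls held. The median change of all genes lay farthest from 0 with library totals, at -0.0446 for ozone on the control diet. Procr had the lowest counts of the members, 128 to 242 per library.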
